A study of Mus musculus with 17 samples.

Results

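The 29 type I interferon response genes described here are genes that cells switch on when interferon alpha or beta binds its receptor. They were measured by bulk RNA sequencing of CD8 T cells sorted from mouse lung tumours. They were chosen by gene symbol from a list written with earlier results of these data known, and not by a threshold on their values. All 29 symbols have an entry in the deposited table of 27240 genes, and all 29 were among the 20137 genes that passed the filter on low counts. The study set mice lacking PD-L1 in endothelial cells, which the series text calls PDL1DEC mice and the sample labels KO, against WT mice. Cells came from macroscopic nodules, which the labels call core-enriched, or from parenchymal nodules, which they call rim-enriched. KO core has 6 libraries (F219, F318, F319, F322, F86 and O) and WT core has 5 (F164, H719, H873, H876 and one named pool). KO rim has 4 libraries (F15, F322, F86 and O) and WT rim has 2 (H874 and H877). The strain, sex, age, tumour model and the Cre line of the deletion are stated in no label. How many mice stand behind the libraries is likewise unstated, and p-values therefore measure the spread between libraries, which may be technical.

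Type I interferons bind a receptor made of IFNAR1 and IFNAR2, which activates the kinases JAK1 and TYK2. These phosphorylate STAT proteins, among them STAT2, which joins IRF9 in a complex that binds interferon-stimulated response elements in promoters. The products of the genes it turns on sense foreign nucleic acid, block the translation or assembly of viruses, or feed back on the pathway. Part of the same set also responds to interferon gamma. In tumours, type I interferon is known to support the priming of CD8 T cells, and a prolonged response is known to accompany their exhaustion. PD-L1, which endothelial cells can display, engages PD-1, an inhibitory receptor of T cells.

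Libraries held 21767045 to 32566456 counts, and the 29 genes took 0.119% to 0.187% of the counts of a library. Levels are given as CPM, counts scaled to a common library size, after TMM scaling, a correction for differences in RNA composition between libraries. They are not divided by transcript length, so levels are compared between libraries and not between genes. The targeted gene Cd274 was deleted in endothelial cells, so its level in sorted T cells does not check the genotype. The 5 CD8 T cell markers (Cd8a, Cd8b1, Cd3d, Cd3e and Cd3g) summed to 3736 to 6397 CPM in KO core, 3235 to 7115 in WT core, 4989 to 5531 in KO rim and 4261 to 4544 in WT rim. Markers of other cells were also present. The 4 markers of plasmacytoid dendritic cells, which are specialised producers of type I interferon, summed to 82.2 to 1787 CPM in KO core, 62.95 to 1444 in WT core, 46.2 to 659 in KO rim and 58.9 to 1026 in WT rim. The libraries that stand apart in their sum are KO core F318, WT core H876 and WT rim H877. The defining marker Siglech had 1433, 1174 and 849 CPM there. It had 509 CPM in KO rim F86 and at most 257 CPM in the other 13 libraries. Cox6a2 and Klk1 were also highest in these 3 libraries, but Pacsin1 was mixed. Pacsin1 in H877 (50.9 CPM) lay below its median over all libraries (63.5 CPM), and in H876 (80.6 CPM) below KO rim F86 (81.4 CPM). The same 3 libraries were also the highest in Flt3, a receptor of dendritic cells and their precursors, with 201, 104 and 121 CPM in F318, H876 and H877, against at most 63.6 CPM elsewhere. They were the highest in the natural killer cell marker Klrb1c as well, with 58.3, 42.2 and 53.1 CPM, against at most 34.2 CPM elsewhere. Cd4, from the list of CD4 and regulatory T cell markers, had 140, 94.7 and 107.5 CPM there, against at most 60.9 CPM elsewhere. The other markers of that list did not set these libraries apart. Foxp3 had 2.53, 1.82 and 2.96 CPM, against a median of 3.15 CPM over all libraries. Other dendritic and natural killer cell markers were mixed. The dendritic cell marker Clec9a was also highest in these 3 libraries. Xcr1 in F318 (25.2 CPM) lay below its median over all libraries (29.4 CPM), and H2-Aa was higher in KO core F219 (1297 CPM) than in F318 (1141 CPM). The natural killer cell marker Ncr1 had 8.26 CPM in H877, against 18.5 CPM in WT core F164. Klra8 was higher in KO core F322 (2.79 CPM) than in F318 (1.55 CPM). H876 had the most conventional dendritic cell markers, 20080 CPM over 7 genes, and the fewest CD8 T cell markers, 3235 CPM. Of the 4 plasmacytoid dendritic cell markers, Klk1 was at 0 counts in KO rim F322, and none of them was at 0 throughout a group. The 10 macrophage and monocyte markers summed to 1479 to 4599 CPM in KO core, 1599 to 4916 in WT core, 538 to 6620 in KO rim and 1014 to 1656 in WT rim. Xist was at 0 in the core and rim libraries of KO F322 and KO O, and the Y-linked gene Ddx3y was above 0 in those 4 libraries (189 to 235 CPM) and in the WT core pool (42.3 CPM) and at 0 in the other 12, so the libraries differ in sex. All 4 libraries without Xist were KO, while every WT library held Xist (35.0 CPM in the pool), so sex and genotype were partly confounded. An alternative fit given below left out F322, O and pool. In sorted bulk samples a change in the number of cells of one type and a change in RNA per cell cannot be told apart.

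Many promoters of these genes held the letters of the response element, a feature that the choice of genes did not use. Promoter windows from RefSeq on GRCm38.p6, which run from 250 bases before to 50 bases after a gene start, were matched by symbol for 21 of the 29 genes. Positions refer to the start on which a window is set. For some genes it lies inside the annotated gene, as for Ifit3, Ifit3b, Oas1a and Isg20. The 9-letter core GAAANNGAA, searched on both strands, occurred in 13 of those 21 genes (61.9%), against 9.76% of all 27025 genes with such a window. The core followed by A occurred in 12 of the 21 (57.1%, against 3.99% of all genes). Its longest form, the core followed by A, C and T, occurred in Ddx58, Ifit1, Ifit3, Ifit3b, Oas1a and Bst2, which is 28.6% of the 21, against 0.303% of all genes. The gamma-activated site TTCNNNGAA, an element known from genes that respond to interferon gamma, occurred in Ifit2, Oas1a, Isg20 and Bst2 (19.0%, against 9.55%). Oas1a and Bst2 held both motifs. The 25 matches of the core lay between 217 bases before and 36 bases after the start, with their median 98 bases before it, and 19 of them lay within 150 bases before it. A match of letters describes the window and does not show that a factor bound there.

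A few of these promoters are printed from 250 bases before the gene start up to the start, because they hold runs of the motifs or, for Isg20, belong to the member with the smallest p below. Capitals mark the matches of both motifs, overlapping ones included. On the coding strand of Ifit1 the core reads in reverse complement, as TTC, any pair of letters and TTTC. Coordinates are chr19:34640639-34640888 on the plus strand for Ifit1, chr4:156200819-156201068 on the minus strand for Isg15, chr5:120907526-120907775 on the minus strand for Oas1a, chr8:71537473-71537722 on the minus strand for Bst2 and chr7:78913174-78913423 on the plus strand for the first of the 3 Isg20 windows. The annotated Isg20 gene begins at 78913396, so the end of its printed stretch lies inside the gene.
Ifit1: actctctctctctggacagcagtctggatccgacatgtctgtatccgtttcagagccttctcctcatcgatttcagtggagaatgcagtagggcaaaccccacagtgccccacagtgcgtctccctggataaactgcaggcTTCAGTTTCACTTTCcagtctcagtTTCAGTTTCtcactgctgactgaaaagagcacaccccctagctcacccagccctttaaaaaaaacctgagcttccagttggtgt
Isg15: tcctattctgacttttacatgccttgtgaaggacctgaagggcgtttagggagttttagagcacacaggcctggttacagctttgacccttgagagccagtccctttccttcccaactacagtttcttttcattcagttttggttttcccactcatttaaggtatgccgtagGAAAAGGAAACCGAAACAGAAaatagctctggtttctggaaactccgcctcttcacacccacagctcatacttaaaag
Oas1a: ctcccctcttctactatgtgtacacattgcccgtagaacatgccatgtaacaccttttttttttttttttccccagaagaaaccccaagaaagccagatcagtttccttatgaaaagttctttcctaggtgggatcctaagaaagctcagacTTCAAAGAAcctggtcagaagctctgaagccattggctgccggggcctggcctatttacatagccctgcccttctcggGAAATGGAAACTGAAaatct
Bst2: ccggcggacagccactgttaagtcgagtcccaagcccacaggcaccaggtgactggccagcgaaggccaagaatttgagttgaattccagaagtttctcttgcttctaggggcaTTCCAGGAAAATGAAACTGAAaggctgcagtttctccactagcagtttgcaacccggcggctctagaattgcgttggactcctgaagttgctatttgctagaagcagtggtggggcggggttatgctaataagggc
Isg20: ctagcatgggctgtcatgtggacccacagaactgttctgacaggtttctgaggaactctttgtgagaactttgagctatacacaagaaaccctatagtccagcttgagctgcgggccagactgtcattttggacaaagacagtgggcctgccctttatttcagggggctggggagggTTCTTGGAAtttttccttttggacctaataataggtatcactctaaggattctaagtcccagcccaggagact
Ifit1 held 3 matches of the core, a pair of them overlapping, and Isg15 held a run of 3 that overlap. In Bst2 a gamma-activated site ran into a pair of overlapping cores. In Oas1a the gamma-activated site stood apart from the cores. The Isg20 window held a gamma-activated site and no match of the core.

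**Figure D1:**
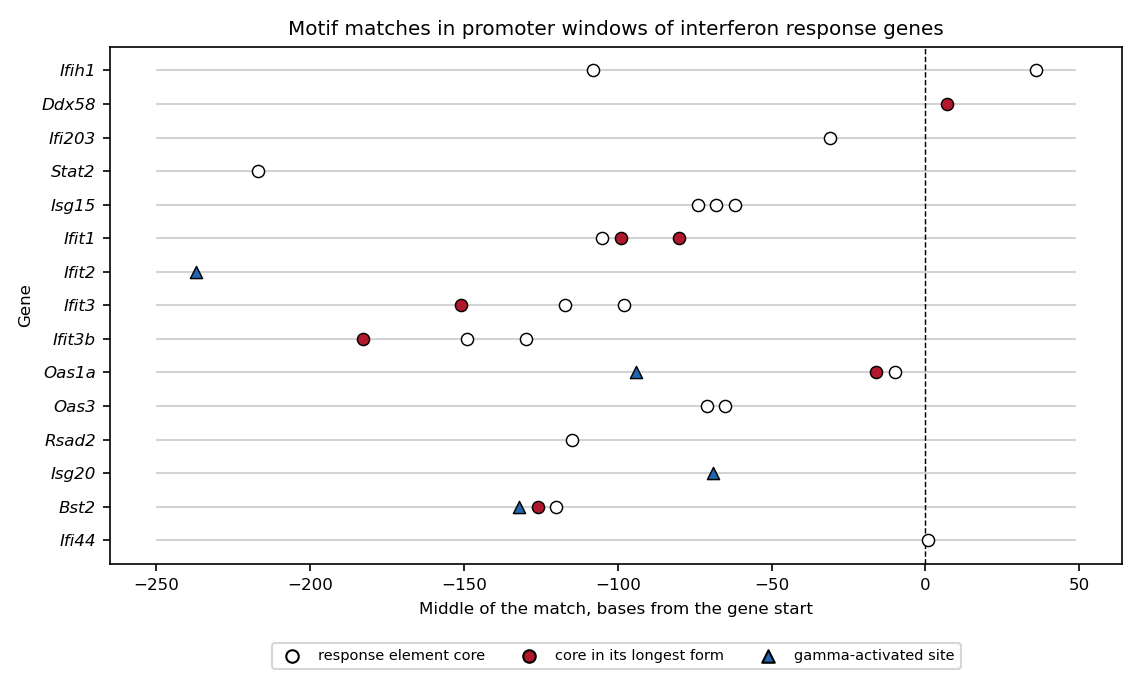
Matches in the promoter windows of the 15 interferon response genes that held one; the x axis is the middle of the match in bases from the gene start (dashed line). Open circles are the response element core, filled circles its longest form and triangles the gamma-activated site; 19 of the 25 cores lie within 150 bases before the start.

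The 29 genes did not move as a block from library to library. KO rim F86 was among the 3 highest of the 17 libraries for 14 of the 29 genes, KO core F86 for 10 and KO core F219 for 9. At the low end, WT rim H877 was among the 3 lowest for 13 genes, WT core H719 for 11 and WT core H876 for 10. WT core H876 was at the same time among the 3 highest for 8 genes, so that 1 library was high for some members and low for others. The mean log2 CPM over the members was 5.01 ± 0.24 in KO core (SD, n = 6), 4.80 ± 0.28 in WT core (n = 5), 4.98 ± 0.28 in KO rim (n = 4) and 4.65 ± 0.06 in WT rim (n = 2). KO and WT libraries overlapped in core, while in rim both WT libraries (4.61 and 4.70) lay below all 4 KO libraries, of which the lowest was at 4.72.

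**Figure D2:**
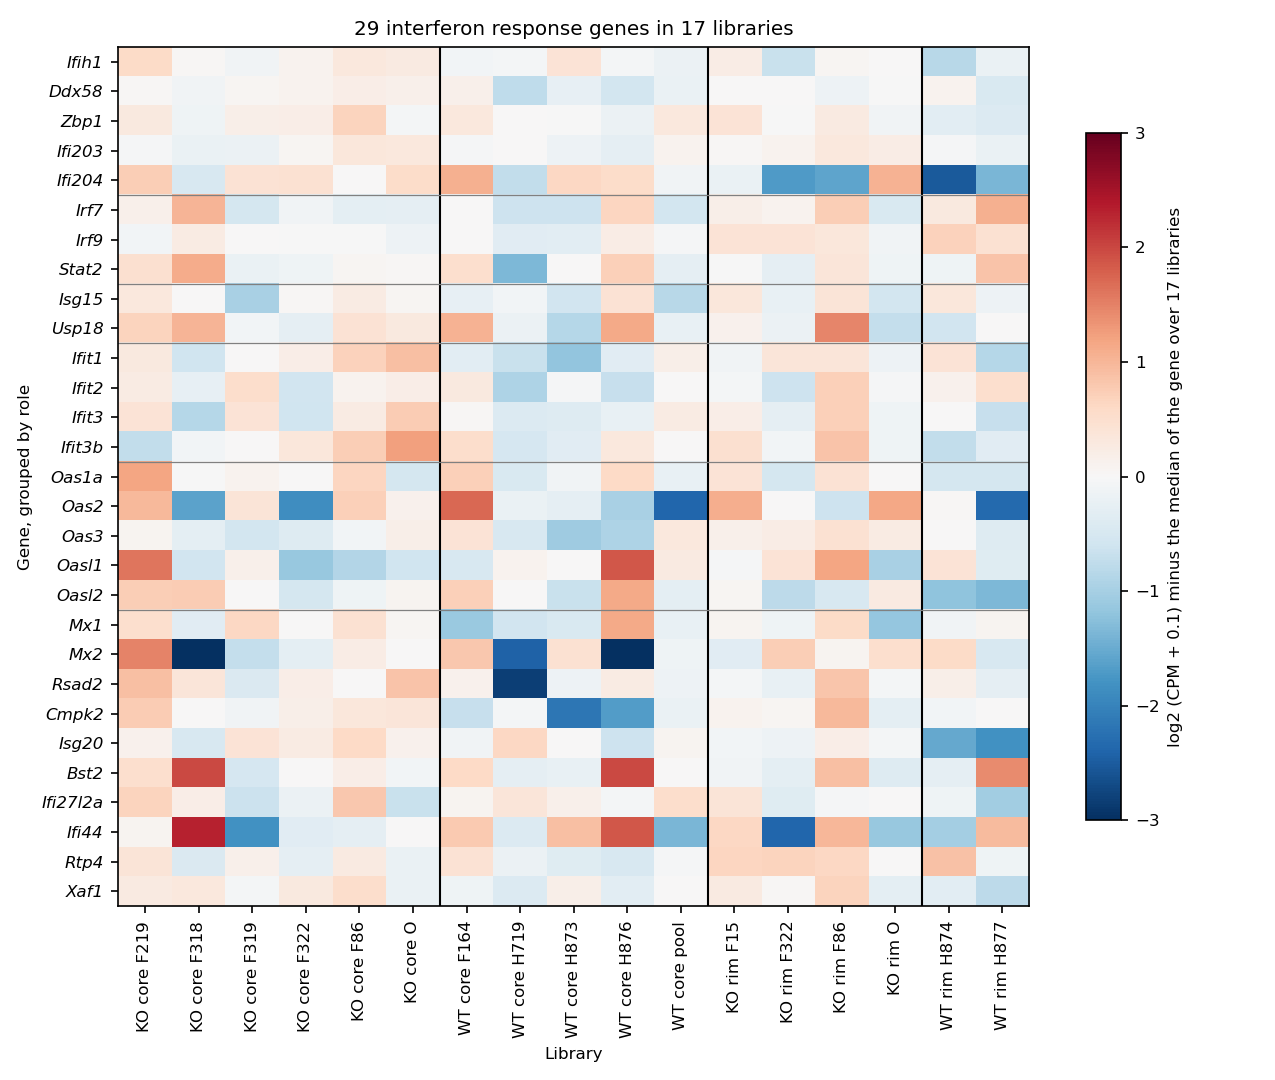
Each row is 1 of the 29 genes, grouped by role, and each column 1 of the 17 libraries, in the order KO core, WT core, KO rim and WT rim. Colour is the log2 of CPM plus 0.1 minus the median of the gene over all libraries, from dark blue (3 below or more) to dark red (3 above or more); Bst2 and Stat2 are high in KO core F318, WT core H876 and WT rim H877, and Isg20 is low in both WT rim libraries.

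Nucleic acid sensors differed widely in how steady they were. Ifi203, a DNA-binding protein of the PYHIN family, ranged only 1.54-fold over the 17 libraries, between 163 CPM in WT core H876 and 249.9 CPM in KO core F86. Its relative Ifi204, also a DNA-binding protein, ranged 12.4-fold, between 2.65 CPM in WT rim H874 and 33.0 CPM in WT core F164. Ifi204 shares 20.02% of its 50-base stretches with other genes, most with Ifi211, and Ifi203 shares 12.35%, most with a pseudogene, so the counts of both are uncertain. Ddx58 encodes RIG-I, a sensor of uncapped viral RNA, and ranged 1.96-fold. Ifih1 encodes MDA5, a sensor of long double-stranded RNA, and ranged 2.63-fold. Zbp1 encodes a sensor of Z-form nucleic acid that can trigger cell death, and ranged 2.125-fold.

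Among the transcription factors, Irf9 was the steadiest, with a range of 2.06-fold. Irf7, which amplifies the induction of interferon alpha genes, ranged 3.24-fold and reached 303 CPM in KO core F318, 235 CPM in WT core H876 and 315 CPM in WT rim H877. In the other 14 libraries Irf7 had a median of 133 CPM and reached 252 CPM, in KO rim F86. Stat2 measured 194, 146 and 162 CPM in F318, H876 and H877, and at most 127 CPM in the other 14 libraries. These are the libraries with the most Siglech, Flt3 and Klrb1c, and the part of plasmacytoid dendritic cells or other cells in these levels was not tested.

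The ISG15 system showed no group order. Isg15, a ubiquitin-like modifier, averaged 16.25 ± 4.22 CPM in KO core, 14.2 ± 4.94 in WT core, 16.75 ± 5.14 in KO rim and 17.6 ± 4.11 in WT rim (SD; n = 6, 5, 4 and 2). Usp18, the protease that removes ISG15 and also dampens the receptor, averaged 41.7 ± 13.7 CPM in KO core, 41.3 ± 24.0 in WT core, 42.1 ± 30.8 in KO rim and 26.35 ± 7.204 in WT rim. For both genes the libraries of all 4 groups overlapped. The neighbouring antisense transcript Gm44148 shares 2.81% of the 50-base stretches of Usp18, and since no label says whether counting used strand, reads from the pair cannot be told apart.

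The IFIT genes encode proteins that bind viral RNA, and all 4 lie on chromosome 19. Ifit1 averaged 45.2 ± 15.7 CPM in KO core, 27.3 ± 9.19 in WT core, 39.8 ± 7.73 in KO rim and 33.9 ± 19.9 in WT rim. Ifit2 averaged 53.8 ± 13.9 CPM in KO core, 44.0 ± 14.7 in WT core, 53.3 ± 21.0 in KO rim and 63.9 ± 11.96 in WT rim. Ifit3 and Ifit3b ranged 3.10-fold and 4.02-fold over the libraries. They are near-identical in part, since 51.2% of the 50-base stretches of Ifit3 occur in Ifit3b and 44.5% of those of Ifit3b in Ifit3, so their separate counts are uncertain.

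Of the OAS proteins, whose oligoadenylate products activate RNase L, Oas2 was the most variable, with an 18.3-fold range between 1.66 CPM in the WT core pool and 30.5 CPM in WT core F164. Both ends of that range were libraries of 1 group. Oas3 ranged 2.89-fold and Oas1a 3.32-fold. Oas1a shares 57.6% of its 50-base stretches with Oas1g, so its counts are uncertain. Oasl1, which in mice blocks the translation of Irf7 mRNA, had 2.66 to 22.2 CPM with its highest value in WT core H876. Oasl2, an OAS-like protein with synthetase activity in mice, had 10.1 to 57.1 CPM, again highest in WT core H876.

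The remaining antiviral effectors held the widest ranges. Mx2, a dynamin-like GTPase, had 2 counts in KO core F318, 4 in WT core H876 and 7 in WT core H719, and at most 5.55 CPM in any library, so its values are imprecise. Mx1, its relative, had 9.45 CPM in KO rim O at the lowest and 46.8 CPM in WT core H876 at the highest. RefSeq annotates Mx1 and Mx2 in GRCm38 as transcribed pseudogenes. Ifi27l2a, a small interferon-induced membrane protein, had 43.2 CPM in WT rim H877 at the lowest and 156.9 CPM in KO core F86 at the highest. Bst2 encodes tetherin, which holds budding virus at the cell surface and is also used as a surface marker of mouse plasmacytoid dendritic cells. Bst2 measured 232.5 CPM in KO core F318, 232.9 in WT core H876 and 157 in WT rim H877, against a median of 54.9 and a highest value of 111 CPM in the other 14 libraries. Ifi44 had 26.5, 19.3 and 10.2 CPM in the same 3 libraries and a median of 4.22 CPM in the others, of which KO rim F86 reached 10.5 CPM. The part of plasmacytoid dendritic cells, or of the other cells whose markers were high there, was not tested either.

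**Figure D3:**
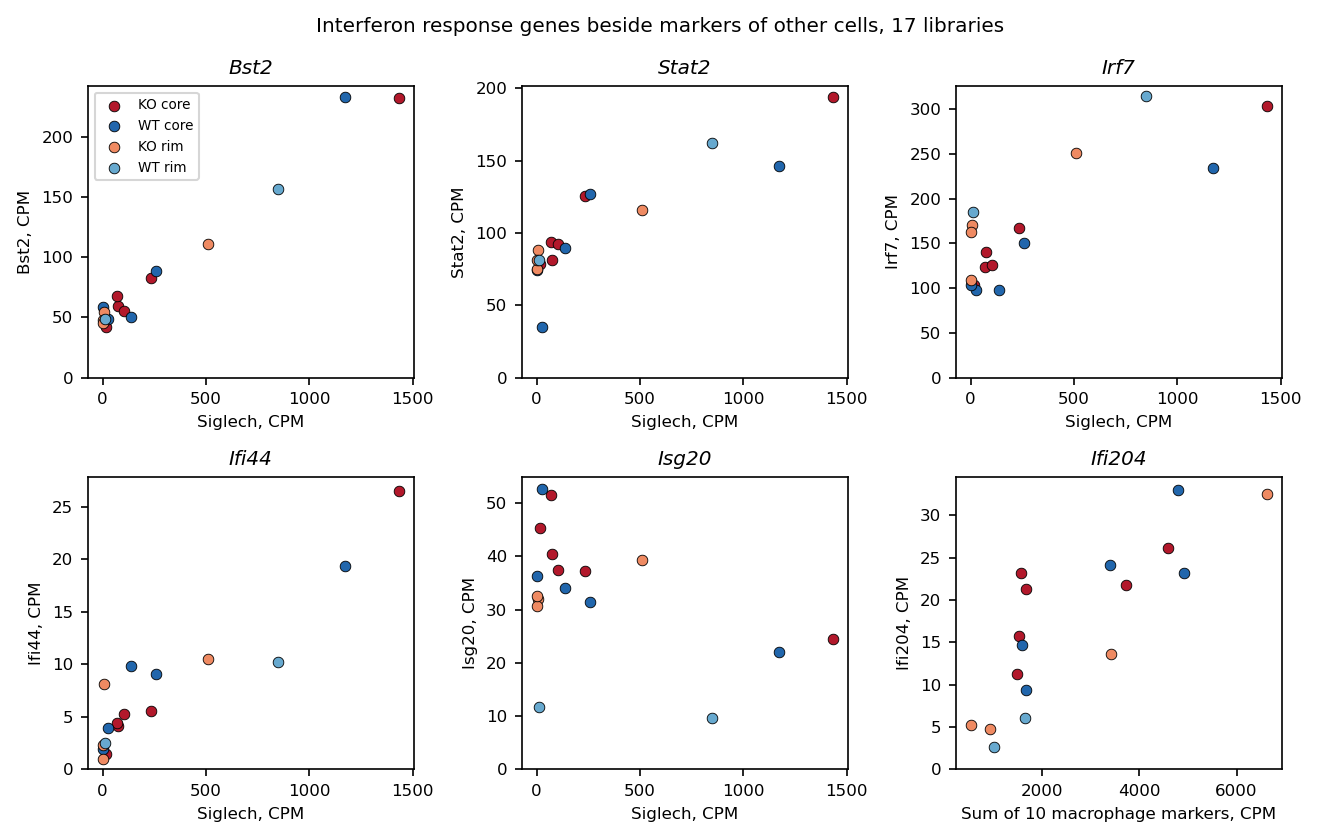
The level of Bst2, Stat2, Irf7, Ifi44 and Isg20 in CPM (y axes) against the plasmacytoid dendritic cell marker Siglech, and of Ifi204 against the sum of 10 macrophage and monocyte markers (x axes, CPM); each point is 1 of 17 libraries, coloured by group. Bst2 and Stat2 are highest in the 3 libraries with the most Siglech, while both WT rim libraries are the lowest for Isg20 at 13.4 and 849 CPM of Siglech.

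Whether loss of endothelial PD-L1 goes with a different interferon response in T cells of the core was asked by KO core against WT core. No member passed the test in either direction by edgeR's quasi-likelihood test at a Benjamini-Hochberg adjusted p under 0.05 over 20137 genes. None of all genes tested did either (0%). At an unadjusted p under 0.05 there were 3 members, all higher in KO, of 29 (6.18% of all genes passed that limit in either direction). DESeq2 called 0 members (0.0648% of all genes), and limma voom with a replicate block called 0 (0% of all genes). Log2 fold changes were positive for 22 of the 29 members (48.4% of all genes), and their median was 0.16, against -0.01 over all genes. By role, all 4 IFIT genes, all 3 transcription factors and 4 of 5 sensors were positive, while 2 of 5 OAS genes were. Markers of other cells moved in the same comparison: all 7 lung epithelium and tumour markers had positive log2 fold changes (median 0.71). All 10 macrophage and monocyte markers (median -0.42), all 6 B cell (-1.23), all 5 neutrophil (-0.97) and all 5 red blood cell markers (-0.86) had negative ones. None of these markers was called, and their part in the members' values was not tested.

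Cmpk2, a mitochondrial nucleotide kinase, had 23.2 CPM at the lowest, 30.03 at the median and 42.7 at the highest in the 6 KO core libraries. The WT core libraries F164, H719, H873, H876 and pool had 15.55, 24.1, 5.53, 7.75 and 22.05 CPM. Only KO core F319 fell within the WT range; the means were 30.5 ± 6.92 CPM in KO core (SD, n = 6) and 15 ± 8.29 in WT core (n = 5). Its log2 fold change of 1.03 (SE 0.34) had an adjusted p of 0.796 by edgeR's quasi-likelihood test with Benjamini-Hochberg adjustment. Rsad2, which encodes viperin, an enzyme that makes a chain-terminating nucleotide, lies beside Cmpk2: Rsad2 spans chr12:26442743-26456452 on the minus strand and Cmpk2 chr12:26469117-26479837 on the plus strand. Rsad2 averaged 20.5 ± 7.02 CPM in KO core and 13.1 ± 6.45 in WT core, with overlapping libraries (log2 fold change 0.64, SE 0.40). WT core H719, at 2.11 CPM, was far below the other WT core libraries, and without it the log2 fold change was 0.385.

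Ifit1 ranged from 23.7 to 67.5 CPM with a median of 42.9 in KO core, and measured 28.99, 22.6, 15.8, 28.3 and 40.7 CPM in WT core F164, H719, H873, H876 and pool. The groups overlapped, and the log2 fold change was 0.73 (SE 0.29). Ddx58 averaged 127 ± 8.93 CPM in KO core and 98.8 ± 24.5 in WT core (log2 fold change 0.37, SE 0.14). WT core F164, at 135 CPM, lay inside the KO range of Ddx58. Xaf1, which counters an inhibitor of cell death, averaged 38.1 ± 6.82 CPM in KO core and 30.3 ± 5.003 in WT core (log2 fold change 0.33, SE 0.18). For Ddx58 and Ifit1 the adjusted p was 0.796 and for Xaf1 0.862, and for Rsad2 0.933, by edgeR's quasi-likelihood test with Benjamini-Hochberg adjustment. Without F318, H876 and H877 the log2 fold change was 0.89 for Ifit1, 0.92 for Cmpk2 and 0.36 for Ddx58, and no member was called.

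**Figure D4:**
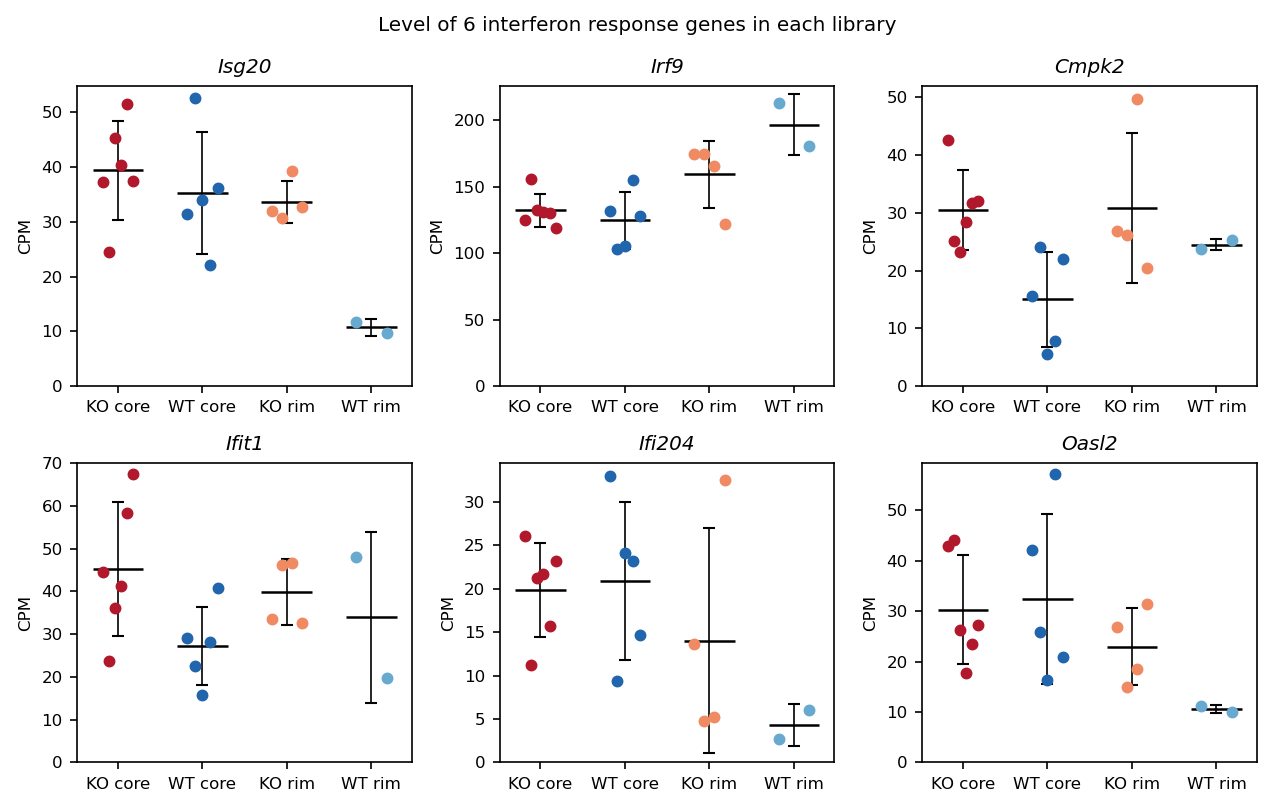
Level in CPM of Isg20, Irf9, Cmpk2, Ifit1, Ifi204 and Oasl2 in each of 17 libraries, by group; lines are means and bars are SD (n = 6, 5, 4 and 2 for KO core, WT core, KO rim and WT rim). Isg20 is between 9.62 and 11.8 CPM in WT rim and between 22.1 and 52.7 CPM in the other 15 libraries.

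The same question in the rim was asked by KO rim against WT rim, with 4 libraries against 2. No member was called by edgeR's quasi-likelihood test, nor was any gene (0%), at a Benjamini-Hochberg adjusted p under 0.05. At an unadjusted p under 0.05 there were 5 members, all higher in KO (7.35% of all genes passed in either direction). DESeq2 called 1 member of 29, Isg20, and 1.69% of all genes, and limma voom with a replicate block called 0 members and 0.0397% of all genes. Log2 fold changes were positive for 21 of 29 members, against 50.8% of all genes, with a median of 0.30 against 0.01. That median was 0.15 without KO rim F86 and 0.57 without WT rim H874. By sign the roles divided: all 5 sensors and all 5 OAS genes were positive, and all 3 transcription factors were negative. For Irf9 both WT rim libraries (213 and 180 CPM) lay above KO rim (at most 175 CPM). For Irf7 (log2 fold change -0.53, SE 0.43) and Stat2 (-0.44, SE 0.45) only WT rim H877 did, at 315 and 162 CPM. WT rim H874 (185 CPM for Irf7, 81.5 CPM for Stat2) lay inside the KO rim ranges of 109 to 252 and 74.9 to 115.5 CPM.

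Isg20 (chr7:78913396-78920396, plus strand, GRCm38), an exonuclease that degrades viral RNA, stood first among the members. It measured 32.1, 30.7, 39.3 and 32.6 CPM in KO rim F15, F322, F86 and O, against 11.8 and 9.62 CPM in WT rim H874 and H877. The groups did not overlap, and the means were 33.7 ± 3.84 CPM in KO rim and 10.7 ± 1.51 in WT rim (SD, n = 4 and 2). The log2 fold change was 1.66 (SE 0.32), with an unadjusted p of 8.49e-05 and an adjusted p of 0.107 by edgeR's quasi-likelihood test with Benjamini-Hochberg adjustment. DESeq2 gave an adjusted p of 8.95e-05, and edgeR's quasi-likelihood test without WT core H719, which shares the estimate of spread, gave a Benjamini-Hochberg adjusted p of 0.0498. Over the other alternatives with edgeR's quasi-likelihood test or limma voom, the Benjamini-Hochberg adjusted p lay between 0.0567 and 0.519.

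Ifi204 measured 13.6, 4.74, 5.20 and 32.5 CPM in KO rim F15, F322, F86 and O, against 2.65 and 6.05 CPM in WT rim H874 and H877. Its libraries overlapped, and the log2 fold change was 1.69 (SE 0.71), or 0.86 without KO rim O. That library was also the library with the largest sum of macrophage and monocyte markers, 6620 CPM, and the part of macrophages was not tested. Oasl2 measured 27.0, 14.9, 18.6 and 31.4 CPM in KO rim, against 11.1 and 10.1 CPM in WT rim (log2 fold change 1.11, SE 0.49). Every KO rim library was above both WT rim libraries for Oasl2. Xaf1 measured 39.8, 34, 52.2 and 26.9 CPM in KO rim, against 26.4 and 19.2 CPM in WT rim (log2 fold change 0.74, SE 0.27). Zbp1 measured 109.7, 82.0, 98.85 and 76.2 CPM in KO rim, against 65.9 and 61.6 CPM in WT rim (log2 fold change 0.52, SE 0.21). In both genes the groups did not overlap. For Xaf1, Zbp1, Ifi204 and Oasl2 the adjusted p was 0.543 to 0.649 by edgeR's quasi-likelihood test with Benjamini-Hochberg adjustment. All 10 macrophage and monocyte markers had positive log2 fold changes in the same comparison, with a median of 2.04, all 7 lung epithelium and tumour markers did, with a median of 3.15, and 3 of 4 plasmacytoid dendritic cell markers had negative ones, with a median of -1.59. All 7 conventional dendritic cell markers (median -0.52) and all 6 B cell markers (-0.45) also had negative values. Of the 5 CD8 T cell markers, 4 had positive ones (median 0.28). None of these markers was called, and their part in the members' values was not tested.

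**Figure D5:**
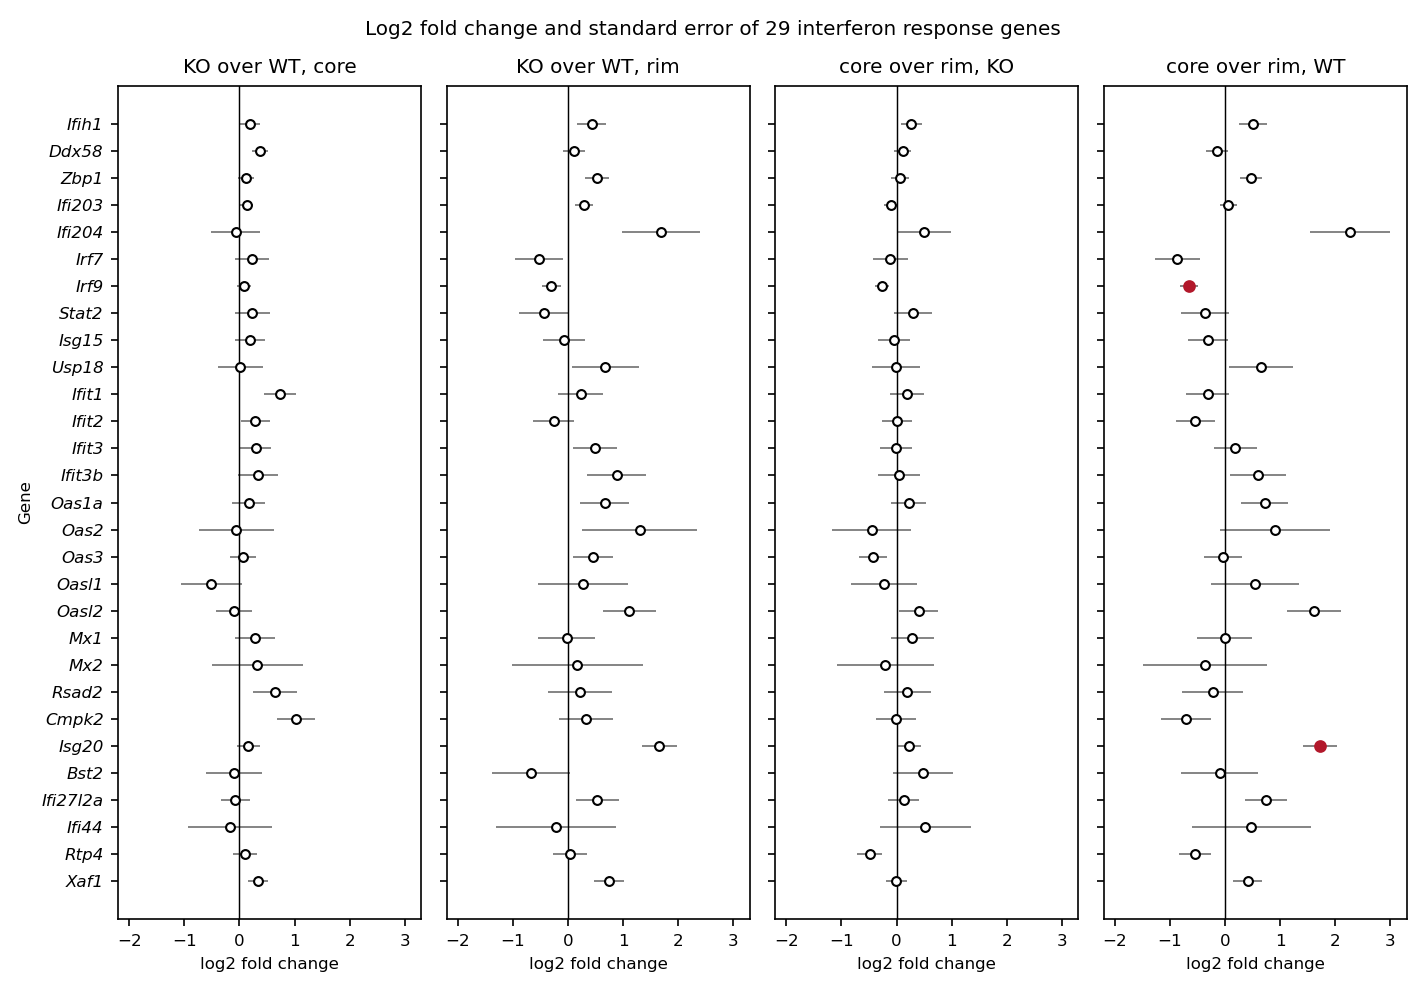
Fitted log2 fold change (points) with its standard error (bars) for each of 29 genes in the 4 comparisons of pairs of groups; the filled points are the genes called by edgeR's quasi-likelihood test after Benjamini-Hochberg adjustment. In core over rim of WT mice, Isg20 (1.72) and Irf9 (-0.66) are filled.

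Core against rim within KO mice asked whether the site of sampling goes with a different interferon response. No member was called by edgeR's quasi-likelihood test at a Benjamini-Hochberg adjusted p under 0.05, and no gene was (0%). A single member, Rtp4, lay under an unadjusted p of 0.05 (7.95% of all genes did). DESeq2 called 0 members (0.183% of all genes), limma voom with a replicate block 0 (0.00993%), and edgeR's quasi-likelihood test on the KO libraries with a replicate block 0 (0%). The median log2 fold change was 0.05, against 0.03 over all genes, and 16 of 29 were positive, against 52.7% of all genes. All 6 B cell (median -1.66), 5 neutrophil (-0.46) and 5 red blood cell markers (-0.95) had negative values. All 7 conventional dendritic cell (0.59), 4 plasmacytoid dendritic cell (1.40) and 3 natural killer cell markers (0.44) had positive ones. None was called, and their part was not tested.

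Rtp4, a chaperone of membrane receptors with antiviral activity, averaged 47.6 ± 10.8 CPM in KO core (n = 6) and 66.8 ± 13.25 in KO rim (SD, n = 4), a log2 fold change of -0.49 (SE 0.23). Among the KO rim libraries O, at 47.0 CPM, was far below the other 3, which lay between 72.0 and 75.0. Rtp4 shares exons and 11.6% of its 50-base stretches with Gm45338, so its counts are uncertain. Irf9 averaged 132 ± 12.6 CPM in KO core and 159 ± 25.4 in KO rim, a log2 fold change of -0.27 (SE 0.13). Oas3 had a log2 fold change of -0.43 (SE 0.26), Ifih1 of 0.27 (SE 0.19) and Oasl2 of 0.40 (SE 0.35). Without KO rim F322 these were 0.12 for Ifih1 and 0.24 for Oasl2, and without KO core F318 Oasl2 was at 0.26. For these 5 members the adjusted p was 0.626 to 0.860 by edgeR's quasi-likelihood test with Benjamini-Hochberg adjustment.

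Core against rim within WT mice was the comparison in which members were called. Of the 29, Isg20 was higher in core and Irf9 lower in core by edgeR's quasi-likelihood test at a Benjamini-Hochberg adjusted p under 0.05. Of all genes, 777 were called (3.86%), 422 higher and 355 lower. At an unadjusted p under 0.05 there were 4 members higher and 2 lower in core (18% of all genes passed in either direction). Log2 fold changes were positive for 15 of 29 members, against 51.7% of all genes, and the median was 0.06, against 0.03. DESeq2 called 4 of 29 members (13.8%) and 11.5% of all genes, and limma voom with a replicate block called 2 members and 2.76% of all genes. All 3 transcription factors had negative values, and 4 of 5 sensors and 4 of 5 OAS genes positive ones. For Irf7 (log2 fold change -0.87, SE 0.41) and Stat2 (-0.37, SE 0.43) only WT rim H877 lay above WT core, at 315 and 162 CPM. WT rim H874 (185 CPM for Irf7, 81.5 CPM for Stat2) lay inside the WT core ranges of 97.4 to 235 and 34.9 to 146 CPM.

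Isg20 measured 31.5, 52.7, 34.1, 22.1 and 36.2 CPM in WT core F164, H719, H873, H876 and pool, against 11.8 and 9.62 CPM in WT rim H874 and H877. Every core library was above both rim libraries, and the means were 35.3 ± 11.1 CPM in WT core and 10.7 ± 1.51 in WT rim (SD, n = 5 and 2). Its log2 fold change of 1.72 (SE 0.31) had an adjusted p of 0.00893 by edgeR's quasi-likelihood test with Benjamini-Hochberg adjustment. The call ended without WT rim H874 (0.0949), without H877 (0.0530), with only WT libraries in the fit (0.0828) and without F322, O and pool (0.0536), all Benjamini-Hochberg adjusted p by edgeR's quasi-likelihood test. Without F318, H876 and H877 the log2 fold change was 1.69, with an adjusted p of 0.0158 by edgeR's quasi-likelihood test with Benjamini-Hochberg adjustment.

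Irf9 (chr14:55603985-55610030, plus strand) encodes the DNA-binding subunit of the complex it forms with STAT2. It measured 132, 103, 105, 155 and 128 CPM in WT core F164, H719, H873, H876 and pool, against 213 and 180 CPM in WT rim H874 and H877. Every core library was below both rim libraries, and the means were 125 ± 21.2 CPM in WT core and 197 ± 23.1 in WT rim (SD, n = 5 and 2). The log2 fold change was -0.66 (SE 0.17), with an adjusted p of 0.0360 by edgeR's quasi-likelihood test with Benjamini-Hochberg adjustment. Leaving out any of 9 libraries ended the call: F219 or F322 of KO core, F164, H719, H873 or pool of WT core, F15 of KO rim, and H874 or H877 of WT rim. In those fits the adjusted p by edgeR's quasi-likelihood test with Benjamini-Hochberg adjustment was 0.0504 to 0.366, and the log2 fold change lay between -0.54 and -0.76. The call also ended with only WT libraries in the fit (0.172) and without F322, O and pool (0.0834). Without F318, H876 and H877 the log2 fold change was -0.89, with an adjusted p of 0.0220 by edgeR's quasi-likelihood test with Benjamini-Hochberg adjustment. Irf9 overlaps exons of Rnf31 on the same strand, with 1.32% of its 50-base stretches shared.

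Next in order were Oasl2, Ifi204 and Zbp1, none of them called. Oasl2 measured 42.2, 25.9, 16.3, 57.1 and 21.0 CPM in WT core, all above the 11.1 and 10.1 CPM of WT rim (log2 fold change 1.61, SE 0.49). Ifi204 measured 33.0, 9.40, 24.1, 23.2 and 14.7 CPM in WT core, also all above the 2.65 and 6.05 CPM of WT rim (log2 fold change 2.26, SE 0.72). Zbp1 averaged 88.4 ± 13.4 CPM in core and 63.8 ± 3.05 in rim (log2 fold change 0.47, SE 0.21). Their adjusted p was 0.0789, 0.0945 and 0.239 by edgeR's quasi-likelihood test with Benjamini-Hochberg adjustment. DESeq2 also called Oasl2 and Ifi204, and edgeR's quasi-likelihood test without KO rim O also called Ifi204, with a Benjamini-Hochberg adjusted p of 0.0382. Macrophage and monocyte markers moved the same way: 10 of 10 had positive log2 fold changes with a median of 2.38, and C1qb and C1qc, complement genes of macrophages, were called higher in core, with log2 fold changes of 3.45 for both (SE 0.85) and adjusted p of 0.0328 and 0.0335 by edgeR's quasi-likelihood test with Benjamini-Hochberg adjustment. Of the 5 libraries with the most macrophage markers, 4 were also among the 5 highest for Ifi204, 4 for Oasl2 and 1 for Isg20. Of the 5 libraries with the fewest, 3 were among the 5 lowest for Ifi204, 3 for Isg20 and 2 for Oasl2. The 7 lung epithelium and tumour markers (median 1.999) and the 5 neutrophil markers (1.14) also all had positive values in this comparison, and the 6 B cell markers (-0.93) all had negative ones. Of the 5 CD8 T cell markers, 4 had positive values (median 0.25), and Cd8a was lowest in the WT rim libraries H874 and H877 (758.5 and 867.9 CPM). The part of macrophages, of these other cells or of CD8 T cell content in the differences, that of Isg20 included, was not tested.

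The difference of the genotype effect between the sites was tested as the KO minus WT difference in core less that in rim. No member was called by edgeR's quasi-likelihood test at a Benjamini-Hochberg adjusted p under 0.05, and no gene was (0%). At an unadjusted p under 0.05 there were 2 members, Isg20 and Ifi204, both with a smaller KO minus WT difference in core (7.68% of all genes passed in either direction). DESeq2 called 1 member of 29, Isg20, and 0.88% of all genes, and limma voom with a replicate block called 0 members and 0% of all genes. The median over the members was -0.17, against -0.01 over all genes. All 5 OAS genes had negative values and all 3 transcription factors positive ones. Of the WT rim libraries, only H877 lay above KO rim and WT core for Irf7 (315 CPM) and Stat2 (162 CPM). All macrophage and monocyte (10 genes, median -2.68) and lung epithelium and tumour markers (7, -1.56) had negative values too. So did all neutrophil (5, -1.60), B cell (6, -0.73) and red blood cell markers (5, -0.82). All plasmacytoid dendritic cell (4, median 1.639) and natural killer cell markers (3, 1.201) had positive ones. The part of these cells in the members' values was not tested.

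On the log2 scale Isg20 had a KO minus WT difference of 0.16 in core (SE 0.21) and of 1.66 in rim (SE 0.32), and the difference of the differences was -1.50 (SE 0.37). Its adjusted p was 0.325 by edgeR's quasi-likelihood test with Benjamini-Hochberg adjustment and 0.0166 by DESeq2. Group means of Isg20 were 39.4 ± 9.12 CPM in KO core, 35.3 ± 11.1 in WT core, 33.7 ± 3.84 in KO rim and 10.7 ± 1.51 in WT rim. The first 3 of these groups overlapped with each other and none overlapped with WT rim, the group of 2 libraries that enters the rim genotype comparison, the WT site comparison and the difference between the sites. The differences of differences were -1.76 (SE 0.83) for Ifi204, or -0.92 without KO rim O, -1.21 (SE 0.58) for Oasl2, 0.39 (SE 0.21) for Irf9 and -0.41 (SE 0.26) for Zbp1. For those 4 members the adjusted p was 0.648 to 0.752 by edgeR's quasi-likelihood test with Benjamini-Hochberg adjustment.

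Upstream of these genes, the ligands left few counts. Of 18 type I interferon genes looked for, 4 have an entry in the table, and none passed the filter on low counts: Ifna2 had 18 counts over all 17 libraries, Ifna13 15, Ifna15 20 and Ifnz 31. Ifnb1 has no entry in the table. The receptor genes were expressed in every library. Ifnar1 averaged 247 ± 70.2 CPM in KO core, 225 ± 39.3 in WT core, 276 ± 35.4 in KO rim and 314.5 ± 13.7 in WT rim. Ifnar2 averaged 166 ± 62.2 CPM in KO core, 126 ± 20.9 in WT core, 142 ± 23.7 in KO rim and 162.5 ± 65.6 in WT rim. For both receptor genes all absolute log2 fold changes between pairs of groups were between 0.13 and 0.48, and neither was called.

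A list of 90 other genes of the pathway, of which 75 have an entry and 70 were tested, was read beside the members. None was called in KO against WT of either site, in core against rim of KO mice or in the difference between the sites, by edgeR's quasi-likelihood test with Benjamini-Hochberg adjustment. At an unadjusted p under 0.05 there were 4 higher and 2 lower in KO core, 2 higher in KO rim, 2 higher and 2 lower in core of KO mice, and 3 with a larger KO minus WT difference in core. Over all genes the shares at that limit were 6.18%, 7.35%, 7.95% and 7.68% in the same order. In core against rim of WT mice 3 of the 70 were called (4.29%, against 3.86% of all genes), all lower in core: Jak1, Tbk1 and Trim21. At an unadjusted p under 0.05 there were 3 higher and 12 lower in core, 21.4% of the list against 18% of all genes. Jak1, the kinase bound to the IFNAR2 chain, averaged 1150 ± 280.5 CPM in WT core and 2177 ± 39.98 in WT rim (log2 fold change -0.92, SE 0.21). Tbk1, the kinase that activates interferon regulatory factors downstream of nucleic acid sensors, averaged 108.5 ± 11.4 CPM in WT core and 162 ± 6.62 in WT rim (log2 fold change -0.58, SE 0.12). Trim21, an antibody-binding ubiquitin ligase, averaged 57.6 ± 11.8 CPM in WT core and 92.2 ± 21.4 in WT rim (log2 fold change -0.68, SE 0.18). Their adjusted p was 0.0239, 0.0138 and 0.0426 by edgeR's quasi-likelihood test with Benjamini-Hochberg adjustment. Without F318, H876 and H877 it was 0.0809, 0.0845 and 0.402 by the same edgeR quasi-likelihood test, and all 3 calls also ended without WT rim H874 (0.153, 0.115 and 0.1015) or H877 (0.0823, 0.0855 and 0.420). The Jak1 call ended also without WT core H873 (0.0558), and the Trim21 call ended in 17 of 24 alternatives, with a log2 fold change of -0.40 without H877. With only WT libraries in the fit all 3 calls ended (0.134, 0.133 and 0.234).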

How the data were processed

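RNA of sorted CD8 T cells was sequenced in 17 libraries. The authors deposited whole-number counts per gene. Per the submitters' processing notes, featureCounts, Subread 2.0.0, HISAT2, Bowtie2 2.4.5 and cutadapt 3.2 were used, with builds GRCm38 and mm10. Settings and strandedness of counting: not given in the sources used here. Counts were tested with edgeR 4.0.16 (filterByExpr, TMM, robust quasi-likelihood, two-sided) in R 4.3.3, with all 17 libraries and 4 groups in 1 fit. P-values were Benjamini-Hochberg adjusted over 20137 genes, with calls at 0.05. CPM used TMM-scaled library totals, and log2 CPM a prior count of 2. Libraries held 21767045 to 32566456 counts, and correlations between libraries were 0.884 to 0.945. No column was without a sample (0).

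Groups followed the labels. The 29 members, the pathway list and the marker lists were chosen with earlier results of these data known. Full statistics are given for called members or, with fewer than 5 called, for the 5 of smallest p, and for called pathway genes, Ifnar1, Ifnar2 and Ifnb1; 1 further gene of that rule is not reported here. Alternatives were RLE scaling, no filter, DESeq2 1.42.0, only the groups compared, F322, O and pool left out, limma 3.58.1 voom with a replicate block, a replicate block in KO libraries, each library left out, and, chosen after seeing the data, F318, H876 and H877 left out. The test was checked on simulated data. Promoter windows are from RefSeq. Shared 50-base stretches were counted over annotated transcripts. Protein identity between members was planned and not done, since no protein table was used here.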

Additional observations from a re-analysis of the deposited data

Results flagged for a closer look

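In 6 of 87 groups of 4 to 6 libraries examined, 1 library lay far from the others for a member gene by Dixon's criterion, which chance meets in about 1 of 20 groups. Ifih1 was high in WT core H873 (45.27 CPM), with the next library at 32.6 CPM. Isg15 was low in KO core F319 (8.25 CPM), with the next at 16.25 CPM. Rsad2 was low in WT core H719 (2.11 CPM, next 13.96 CPM) and high in KO rim F86 (27.8 CPM, next 15.06 CPM). Irf9 and Rtp4 were both low in KO rim O, with 121.8 CPM for Irf9 (next 165.9 CPM) and 46.97 CPM for Rtp4 (next 72.0 CPM).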

How the results depend on the processing

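No result changed direction among those called. In KO against WT rim DESeq2 called 1 member (272 of 16091 genes) and leaving out 1 library gave 0 to 1 called (1 without WT core H719); the median log2 fold change was 0.55 without F322, O and pool and 0.15 to 0.57 with 1 library left out. In core against rim of WT mice DESeq2 called 4 members (1853 of 16091 genes), the fit with only WT libraries 0 (91 of 17334), the fit without F322, O and pool 0 (313 of 18820), and leaving out 1 library gave 0 to 3. For the difference between the sites DESeq2 called 1 member (159 of 18058 genes). The promoter share was 28.6% with the longest motif, a stricter form of the core, against 0.303% of all genes. The cause of the shifts in calls and medians was not tested. Medians with 1 library left out were 0.09 to 0.26 (KO against WT core), -0.03 to 0.23 (core against rim, KO), -0.02 to 0.23 (core against rim, WT) and -0.35 to 0.02 (difference between the sites), so the last 3 cross 0.

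Core and rim libraries of F322, F86 and O share an identifier that the labels do not call an animal. Their deviations from the group means correlated at 0.072, 0.045 and 0.082, each highest with its own identifier. Over the 29 members the same correlations were 0.15, -0.41 and 0.23. With the replicate block, edgeR on the KO libraries called 0 members, with a median of 0.06. Limma voom with the block (block correlation 0.042) called 2 members in WT core against rim and 0 elsewhere. The main edgeR fit without the block called as many in every comparison. Over all genes in WT core against rim, 556 were called by limma voom and 777 by the main fit. Method and block changed together between these fits, so the part of the block alone was not tested. Mx2, with as few as 2 counts in a library, is limited by depth. WT rim has 2 libraries, on which 3 of the comparisons rest.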
